A study of Mus musculus with 8 samples.

Results

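Branched-chain amino acid catabolism was followed through 7 genes: the aminotransferases Bcat1 and Bcat2, the subunit genes Bckdha, Bckdhb and Dbt of the branched-chain ketoacid dehydrogenase complex, its kinase Bckdk, and Ivd. They were taken by symbol from a table of 55291 genes, and all 7 were found and passed the filter on low counts. Leucine, isoleucine and valine are broken down by a shared pair of first steps. An aminotransferase moves the amino group to 2-oxoglutarate, giving glutamate and a branched-chain ketoacid, and the dehydrogenase complex of the mitochondrion then decarboxylates that ketoacid irreversibly to an acyl-CoA, after which each amino acid has its own branch. In T cells leucine also feeds the mTORC1 signal, and Bcat1 is known to be induced when mouse T cells are activated.

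Spleens of naïve mice gave the CD8+ T cells, isolated with a magnetic kit and not sorted by fluorescence, and their polyadenylated RNA was sequenced as 8 bulk libraries. The sample titles call the cells naïve CD8 T cells. They put 4 libraries under ATF4 overexpression, with the genotype ATF4 Tg/Tg, and 4 under WT. The series' design names the mice ATF4Tg/Tg or E8IcreATF4Tg/Tg, so the label WT is used here only as given, and by those names both groups may carry the transgene alleles while 1 also carries a Cre driven by the E8I enhancer of the CD8 locus, which is active in mature CD8+ T cells. No age, sex, treatment or time is given for either group. Whether the libraries of a group stem from different mice is not stated, so each p-value reflects only the scatter among libraries, some of which may be technical.

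Libraries held 93478686 to 125974143 estimated counts and 17446 to 20338 genes with at least 1 count. In each group, replicates 1 and 2 were treated as a set of libraries and replicates 3 and 4 as another, and values within these sets are given where they differ. The labels name no such sets. In both groups the library names number replicates 1 to 4 as 1, 2, 4 and 5, with a hyphen before 4 and 5 in the count columns. No reason is given. The split was taken from earlier results of these same data, so a p-value for the set term is no independent test of it. Atf4 averaged 328 ± 125 CPM in ATF4 overexpression and 231 ± 76.4 CPM in WT (SD, n = 4 each; CPM is counts scaled to a normalized library size of 1e+06), a log2 fold change of 0.51 ± 0.31 (SE) with an adjusted p of 0.37 in edgeR. It was higher in 4 of 4 same-numbered pairs, and blocking on the replicate number gave a log2 fold change of 0.48 with an adjusted p of 0.00022. Without the 4 libraries with the fewest genes at 2 to 5 counts, which leaves ATF4 overexpression replicates 3 and 4 and WT replicates 2 and 3 and so does not balance the sets, it was -0.11 (edgeR adjusted p = 0.86), which turns the direction. Reads of the transgene and of the endogenous Atf4 gene were not separated. All 6 CD8 T cell markers examined, among them Cd8a and Cd3e, were abundant, and their summed level was 3740 to 3800 CPM in ATF4 overexpression and 4700 to 4850 CPM in WT. Of these 6 markers 4 were called lower, with a median log2 fold change of -0.31, where 4.89% of all tested genes were called lower. The 8 marker lists of other cell types and of cycling cells were each higher in sum in every ATF4 overexpression library than in any WT library, and their values stand beside the Bcat1 result. In bulk libraries, fewer cells of a type and less RNA per cell cannot be told apart.

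Of the 7 genes 1 passed the test, and it was higher in ATF4 overexpression: Bcat1, the cytosolic aminotransferase, at 15.8 times its WT mean. The other 6 were not called in either direction, and their fitted log2 fold changes lay between -0.31 for Ivd and 0.17 for Bckdk. Calls were made in the quasi-likelihood test of edgeR, where the Benjamini-Hochberg adjusted p over 16630 tested genes had to be under 0.05, and 9.16% of these genes were called higher and 4.89% lower. The median log2 fold change was -0.001 over the 7 genes, against -0.02 over all tested genes. Bcat1 was also the 1 gene of the 7 whose groups did not overlap, and among all tested genes 13.3% had every ATF4 overexpression library above every WT library while 8.66% had every one below. Summed over the 7 genes the level was 181 to 206 CPM in ATF4 overexpression and 181 to 196 CPM in WT, so the ranges overlapped.

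**Figure D1:**
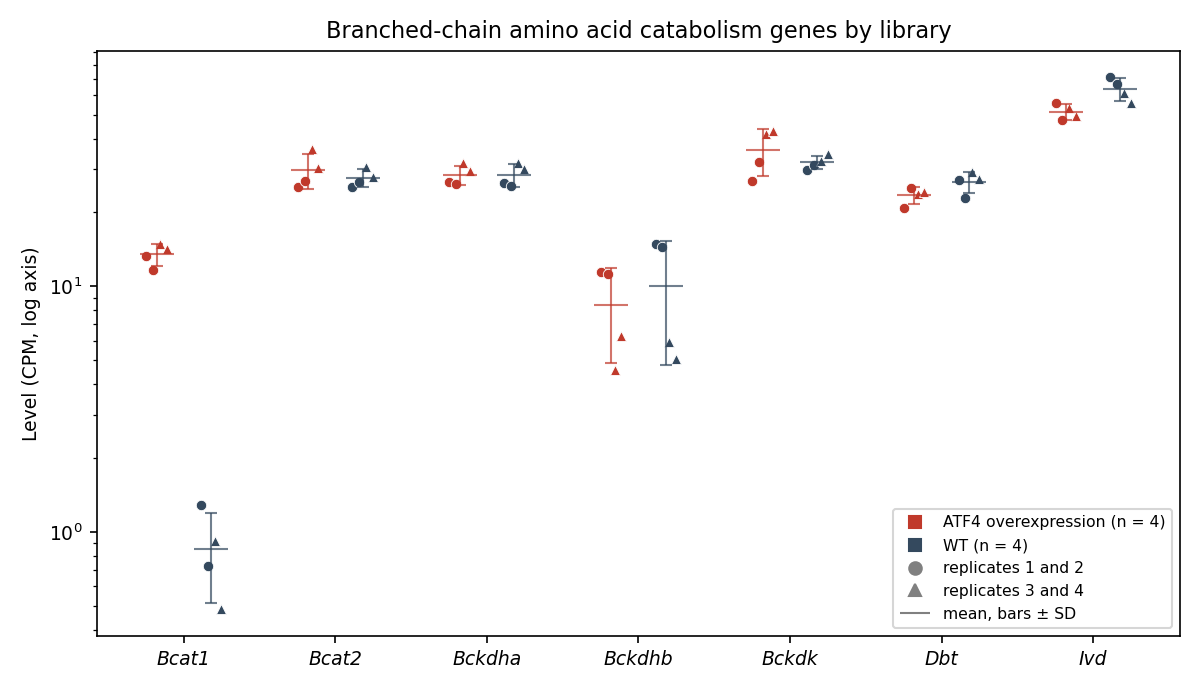
Level of each of the 7 genes in CPM on a log axis, with 1 point per library, ATF4 overexpression left of WT, circles for replicates 1 and 2 and triangles for replicates 3 and 4, and a line at the mean with bars of 1 SD. The 4 ATF4 overexpression libraries sit at 11.7 to 14.8 CPM for Bcat1, above the WT libraries at 0.486 to 1.29 CPM, while the groups overlap for each of the other genes.

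Bcat1 (ENSMUSG00000030268.17, GRCm38 chromosome 6, 144993835 to 145076184, minus strand) encodes the cytosolic branched-chain aminotransferase. Its level was 13.3, 11.7, 14.8 and 14.1 CPM in ATF4 overexpression replicates 1 to 4, against 1.29, 0.725, 0.917 and 0.486 CPM in WT replicates 1 to 4. All 4 ATF4 overexpression libraries were high and close to each other, all 4 WT libraries were low, and the groups were far apart. Behind these levels stood 1662, 1236, 1816 and 1690 counts in ATF4 overexpression and 114, 73, 110 and 59 counts in WT, so WT libraries held a low but countable signal. The means were 13.5 ± 1.36 CPM in ATF4 overexpression and 0.854 ± 0.339 CPM in WT (SD, n = 4 each). The log2 fold change was 3.99 ± 0.29 (SE), with a 95% interval of 3.34 to 4.63 and an edgeR adjusted p of 2.6e-05. Among the tested genes, 288 had a higher log2 fold change, 253 of them called, and 57 had a smaller p.

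The Bcat1 difference was present in both library sets. Within replicates 1 and 2 the log2 fold change was 3.67 (edgeR adjusted p = 0.00032), and within replicates 3 and 4 it was 4.37 (edgeR adjusted p = 0.00028). The interaction of genotype and library set had an edgeR adjusted p of 0.55 for Bcat1, and 0 of the 7 genes had a called interaction, against 0.998% of all tested genes. Leaving out each library in turn gave log2 fold changes of 3.79 to 4.25. Without the 4 libraries with the fewest genes at 2 to 5 counts it was 4.13 (edgeR adjusted p = 0.0014), and Bcat1 was again the 1 gene of the 7 called.

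Bcat1 has a pair of RefSeq transcription start sites on GRCm38.p6, and the 250 bases upstream of each are shown because this is the 1 gene of the 7 that was called. They are read on the minus strand, 5′ to 3′. No base is in capitals in them, because capitals mark matches to TGATGNAA, the core of the response element bound by C/EBP and ATF factors, which was searched on both strands. The third sequence is 30 bases upstream of Asns, asparagine synthetase, an ATF4 target known to carry such an element, and is shown for contrast with its match in capitals.
Bcat1 upstream of the inner start, chr6:145048813-145049062: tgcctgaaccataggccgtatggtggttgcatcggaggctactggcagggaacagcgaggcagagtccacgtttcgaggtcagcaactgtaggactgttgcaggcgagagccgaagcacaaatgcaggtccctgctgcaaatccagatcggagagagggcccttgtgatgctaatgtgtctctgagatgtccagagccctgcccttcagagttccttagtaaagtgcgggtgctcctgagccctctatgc
Bcat1 upstream of the outer start, chr6:145076158-145076407: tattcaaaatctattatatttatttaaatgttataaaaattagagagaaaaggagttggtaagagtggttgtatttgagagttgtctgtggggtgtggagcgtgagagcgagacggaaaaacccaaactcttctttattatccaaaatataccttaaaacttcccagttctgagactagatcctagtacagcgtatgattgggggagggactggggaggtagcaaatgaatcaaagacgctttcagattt
Asns, match beginning 23 bases before the start on chromosome 6: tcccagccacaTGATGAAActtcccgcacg
RefSeq windows of 300 bases, 250 before to 50 after a start, were at hand for 6 of the 7 genes, 9 windows in all, and Dbt had none. The motif was in 0 of these 9 windows and in 1304 of 32851 windows of the same length over all genes, which is 3.97%. A match is a description of letters, and its absence says only that these letters are not in these windows.

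Markers of other cell types moved with Bcat1 between the groups. Cycling cell markers summed to 198 to 534 CPM in ATF4 overexpression and 37.4 to 80.3 CPM in WT, with 6 of 6 called higher. Myeloid markers summed to 122 to 240 CPM in ATF4 overexpression and 17.8 to 72.3 CPM in WT (4 of 6 called higher). B cell markers summed to 81.1 to 214 CPM in ATF4 overexpression and 27.5 to 50.5 CPM in WT (4 of 6 called higher). With the replicate block 5 of 6 were called higher in each of these lists. Erythroid markers summed to 49.9 to 212 CPM in ATF4 overexpression and 3.47 to 7.91 CPM in WT, with 4 of 6 called higher. These lists thus differed between the groups by several fold, as Bcat1 did, and none of them was at 0 in sum in any library.

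The smaller lists were also higher in ATF4 overexpression, but NK cell and CD4 T cell markers differed far less in replicates 3 and 4. NK cell markers summed to 69.3 to 162 CPM in ATF4 overexpression and 12.1 to 44.5 CPM in WT (2 of 4 called higher). With the replicate block 0 of them were called. In replicates 1 and 2 they summed to 162 and 135 CPM, against 12.3 and 12.1 CPM in WT. In replicates 3 and 4 they summed to 73.2 and 69.3 CPM, against 44.5 and 41.2 CPM in WT. Platelet markers summed to 8.04 to 14.8 CPM in ATF4 overexpression and 3.43 to 4.40 CPM in WT (2 of 4 called higher), where Gp9, a platelet glycoprotein, was at 0 in all WT libraries. CD4 T cell markers summed to 6.16 to 17.6 CPM in ATF4 overexpression and 2.38 to 5.61 CPM in WT (1 of 2 called higher), and dendritic cell markers to 1.75 to 4.89 CPM in ATF4 overexpression and 1.07 to 1.50 CPM in WT (1 of 4 called higher). Between the library sets of ATF4 overexpression the lists moved in different directions. The cycling, myeloid, erythroid, platelet and dendritic sums were higher in replicates 3 and 4 than in replicates 1 and 2, as was Bcat1. The B cell, NK cell and CD4 T cell sums were lower there. In the myeloid list Lyz2 was at 42.1 and 23.9 CPM in replicates 1 and 2 and at 158 and 164 CPM in replicates 3 and 4. Against their sums, Itgam, Fcer1g and Cd68 of the myeloid list and Ppbp of the platelet list were lower in replicates 3 and 4. Erythroid markers summed to 53.6 and 49.9 CPM in replicates 1 and 2 and to 212 and 205 CPM in replicates 3 and 4. Bcat1 was at 13.3 and 11.7 CPM in replicates 1 and 2 and at 14.8 and 14.1 CPM in replicates 3 and 4. The erythroid and dendritic lists ranked these libraries in the same order as Bcat1. The part of these cells in the Bcat1 result was not tested.

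**Figure D2:**
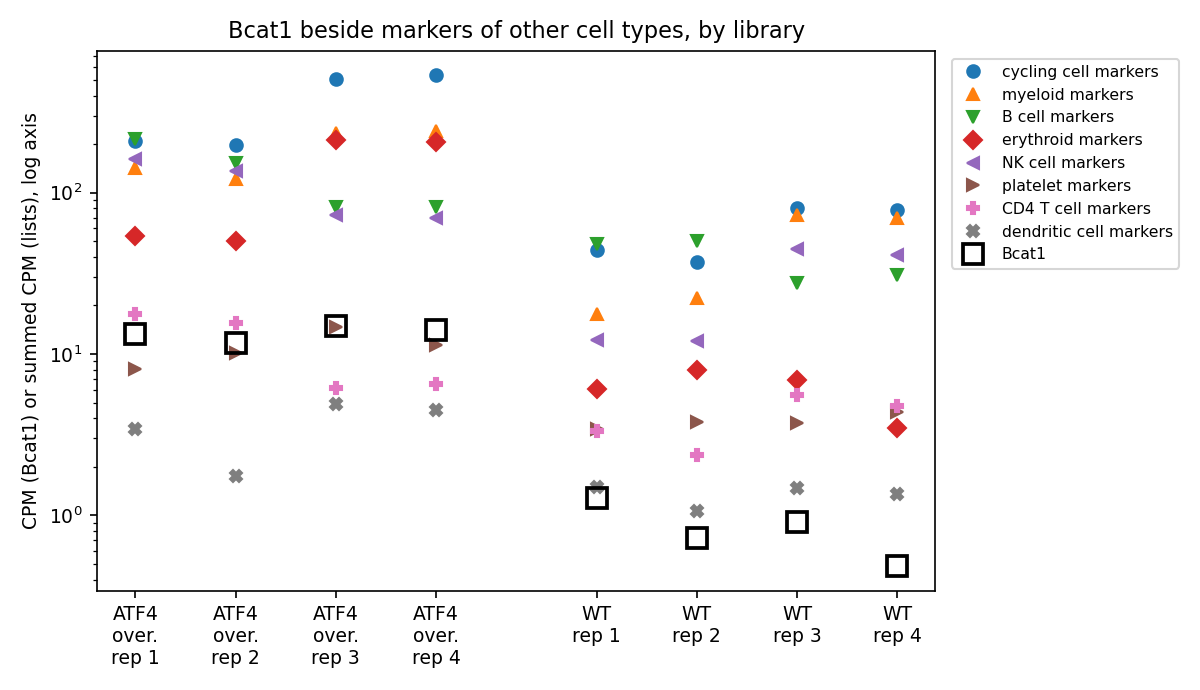
Bcat1 in CPM (open squares) and summed CPM of 8 marker lists (filled symbols) on a log axis, with 1 column per library, ATF4 overexpression replicates 1 to 4 left of WT replicates 1 to 4. All lists and Bcat1 are higher in the ATF4 overexpression libraries, and within these the erythroid list spans 49.9 to 212 CPM while Bcat1 spans 11.7 to 14.8 CPM.

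Bcat2 (ENSMUSG00000030826.19, chromosome 7, 45570153 to 45589711, plus strand) encodes the mitochondrial aminotransferase, which carries out the same reaction beside the dehydrogenase complex. Its level was 25.5, 27.0, 36.4 and 30.4 CPM in ATF4 overexpression replicates 1 to 4, against 25.3, 26.6, 30.7 and 28.0 CPM in WT replicates 1 to 4. Each ATF4 overexpression library was above the WT library of the same number, but by little, and the groups overlapped. The fitted log2 fold change was 0.11 ± 0.12 (SE), with a 95% interval of -0.16 to 0.38 and an edgeR adjusted p of 0.66.

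The balance between the aminotransferases moved with Bcat1. Taken per kilobase of merged exons, Bcat1 made up 17.9%, 15.3%, 14.6% and 16.3% of the summed Bcat1 and Bcat2 level in ATF4 overexpression replicates 1 to 4, against 2.08%, 1.13%, 1.24% and 0.72% in WT replicates 1 to 4. With the length of the transcript that has the longest coding sequence, the share was 8.43% to 10.6% in ATF4 overexpression and 0.391% to 1.14% in WT. The size of the share depends on which length is used, and on either length the groups did not overlap. Bcat2 thus remained the more abundant of the pair in all 8 libraries.

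The E1 component of the dehydrogenase complex, which decarboxylates the ketoacid, is built from alpha and beta subunits encoded by Bckdha and Bckdhb. Bckdha (ENSMUSG00000060376.7, chromosome 7, 25629946 to 25658981, minus strand) was at 26.7, 26.0, 31.7 and 29.4 CPM in ATF4 overexpression replicates 1 to 4, against 26.3, 25.5, 31.9 and 30.2 CPM in WT replicates 1 to 4. Replicates 3 and 4 were a little higher than replicates 1 and 2 in both groups, and the groups overlapped throughout. Its log2 fold change was -0.001 ± 0.10 (SE), with a 95% interval of -0.23 to 0.23 and an edgeR adjusted p of 1.0, so the fitted change was held near 0.

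Bckdhb (ENSMUSG00000032263.14, chromosome 9, 83925145 to 84124240, plus strand) was at 11.4, 11.2, 4.56 and 6.26 CPM in ATF4 overexpression replicates 1 to 4, against 14.8, 14.4, 5.95 and 5.07 CPM in WT replicates 1 to 4. Replicates 1 and 2 were high and replicates 3 and 4 low in both groups, and the groups overlapped. For Bckdhb the log2 fold change was -0.26 ± 0.42 (SE), with a 95% interval of -1.21 to 0.68 and an edgeR adjusted p of 0.78. With the replicate block it was -0.21 ± 0.15 (SE, edgeR adjusted p = 0.37), not called but with a smaller error, and without the 4 libraries with the fewest genes at 2 to 5 counts it was -0.91 ± 0.44 (SE, edgeR adjusted p = 0.27). In a fit with the library set as a term, replicates 3 and 4 lay below replicates 1 and 2 by a log2 difference of -1.24 (edgeR adjusted p = 0.00013), and 11.3% of all tested genes were called lower in that term.

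The ratio of the E1 subunit genes followed the library sets as well. Per kilobase, Bckdhb was at 0.451, 0.453, 0.151 and 0.224 times Bckdha in ATF4 overexpression replicates 1 to 4, against 0.592, 0.594, 0.196 and 0.177 times in WT replicates 1 to 4. The transcript ratio of subunits that assemble together thus differed more between library sets than between genotypes. Over the 8 libraries the log2 levels of Bckdha and Bckdhb had a Pearson r of -0.947, and -0.958 after removal of the group means, as a description of libraries that share the same set split.

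Dbt (ENSMUSG00000000340.10, chromosome 3, 116513070 to 116549981, plus strand) encodes the E2 transacylase, which forms the core of the complex and passes the acyl group to coenzyme A. Its level was 21.0, 25.2, 23.9 and 24.2 CPM in ATF4 overexpression replicates 1 to 4, against 27.1, 23.0, 29.1 and 27.4 CPM in WT replicates 1 to 4. WT replicates 1, 3 and 4 lay above all ATF4 overexpression libraries, WT replicate 2 lay among them, and the groups overlapped. The fit gave a log2 fold change of -0.18 ± 0.10 (SE), with a 95% interval of -0.40 to 0.05 and an edgeR adjusted p of 0.31. Dld, the E3 dihydrolipoamide dehydrogenase that this complex shares with other ketoacid dehydrogenases, averaged 74.6 ± 7.39 CPM in ATF4 overexpression and 69.8 ± 2.29 CPM in WT (SD, n = 4 each), with an edgeR adjusted p of 0.53.

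Bckdk (ENSMUSG00000030802.14, chromosome 7, 127904082 to 127910221, plus strand) encodes the kinase that phosphorylates the E1 alpha subunit and switches the complex off. Its level was 26.9, 32.0, 41.7 and 43.1 CPM in ATF4 overexpression replicates 1 to 4, against 29.8, 31.2, 32.4 and 34.5 CPM in WT replicates 1 to 4. ATF4 overexpression replicates 3 and 4 were above all WT libraries, while replicates 1 and 2 lay within or below the WT range. The log2 fold change was 0.17 ± 0.14 (SE), with a 95% interval of -0.15 to 0.49 and an edgeR adjusted p of 0.54. Within replicates 3 and 4 it was 0.34 and was called higher (edgeR adjusted p = 0.019), where 14.3% of tested genes were called higher, and within replicates 1 and 2 it was -0.01 (edgeR adjusted p = 0.97). The difference between the sets did not pass its own test (interaction, edgeR adjusted p = 0.29).

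Ppm1k encodes the phosphatase that removes the same phosphate and switches the complex on. Its level was 30.1, 27.3, 24.8 and 22.9 CPM in ATF4 overexpression replicates 1 to 4, against 37.0, 40.5, 30.1 and 29.2 CPM in WT replicates 1 to 4. It was lower than WT in 4 of 4 same-numbered pairs, although the groups overlapped between the sets. The log2 fold change was -0.38 ± 0.13 (SE, edgeR adjusted p = 0.084), and with the replicate block it was -0.37 and called lower (edgeR adjusted p = 0.0048). Per kilobase, Bckdk was at 1.46, 1.91, 2.74 and 3.06 times Ppm1k in ATF4 overexpression replicates 1 to 4, against 1.31, 1.25, 1.76 and 1.93 times in WT replicates 1 to 4. This ratio was formed after the values were seen and is given with no test. In each pair of equal number it was higher in ATF4 overexpression.

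**Figure D3:**
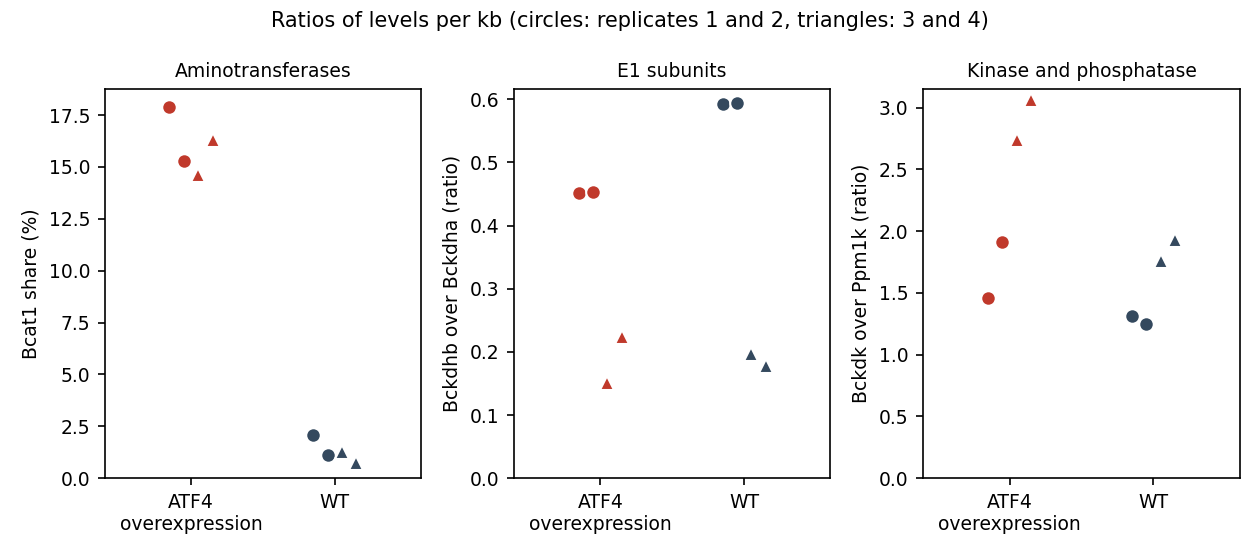
Ratios of levels per kilobase of merged exons, 1 point per library, ATF4 overexpression left of WT, circles for replicates 1 and 2 and triangles for replicates 3 and 4. The Bcat1 share (%) separates the groups at 14.6% to 17.9% in ATF4 overexpression and 0.72% to 2.08% in WT, Bckdhb over Bckdha separates the library sets, and Bckdk over Ppm1k moves with both.

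Ivd (ENSMUSG00000027332.11, chromosome 2, 118861954 to 118882909, plus strand) encodes isovaleryl-CoA dehydrogenase, the first enzyme of the leucine branch after the shared complex. Its level was 55.9, 47.6, 53.1 and 49.3 CPM in ATF4 overexpression replicates 1 to 4, against 71.0, 66.7, 61.3 and 55.7 CPM in WT replicates 1 to 4. Each ATF4 overexpression library was below the WT library of the same number, and the groups overlapped only through ATF4 overexpression replicate 1 and WT replicate 4. The means were 51.5 ± 3.75 CPM in ATF4 overexpression and 63.7 ± 6.65 CPM in WT (SD, n = 4 each). The log2 fold change was -0.31 ± 0.09 (SE), with a 95% interval of -0.51 to -0.10, and the edgeR adjusted p of 0.054 missed the threshold. With the replicate block it was -0.30 and called lower (edgeR adjusted p = 0.008), and in DESeq2 it was -0.29 and called lower (adjusted p = 0.035). The replicate block called 13.7% of tested genes higher and 13.5% lower, and DESeq2 called 5.6% lower. Without WT replicate 4 the edgeR log2 fold change was -0.37 and called lower (adjusted p = 0.032), so the call of Ivd turned on the model and on 1 library. The T cell markers moved with Ivd by a similar amount, since all 6 had negative log2 fold changes, 4 were called lower, and 6 were called lower with the replicate block. Their part in the Ivd result was not tested.

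**Figure D4:**
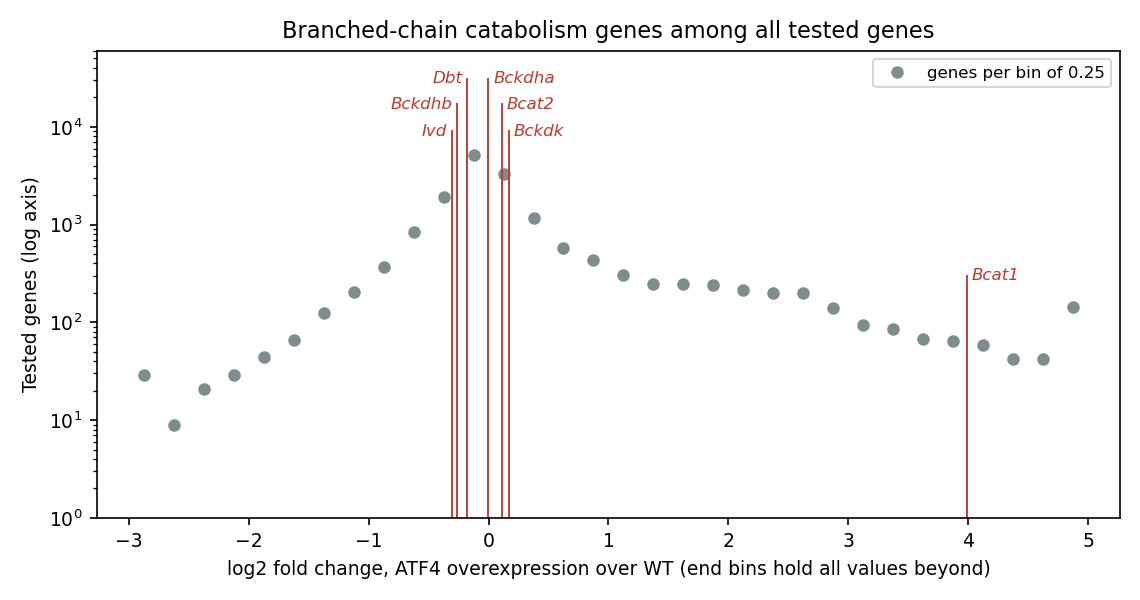
Number of tested genes (log axis) per bin of log2 fold change, ATF4 overexpression over WT, as grey points, with a vertical red line at the value of each of the 7 genes and the end bins holding all values beyond. Bcat1 at 3.99 lies in the upper tail, and the other 6 genes lie between -0.31 and 0.17, where most tested genes lie.

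The order of the levels was similar in both groups when set per kilobase of merged exons. In ATF4 overexpression Bckdha was highest at 15.0 ± 1.36 CPM per kilobase, followed by Bckdk at 9.72 ± 2.10, Ivd at 9.35 ± 0.682, Bcat2 at 7.64 ± 1.25, Dbt at 7.03 ± 0.541, Bckdhb at 4.64 ± 1.93 and Bcat1 at 1.45 ± 0.146 (SD, n = 4). In WT Bckdha was highest at 15.0 ± 1.61 CPM per kilobase, followed by Ivd at 11.6 ± 1.21, Bckdk at 8.65 ± 0.549, Dbt at 7.96 ± 0.779, Bcat2 at 7.09 ± 0.589, Bckdhb at 5.57 ± 2.92 and Bcat1 at 0.0916 ± 0.0364 (SD, n = 4). In ATF4 overexpression all neighbours from Bckdk down to Bckdhb overlapped, and in WT those from Bckdk down to Bckdhb did, whereas Bckdha at the top and Bcat1 at the bottom stood apart in both groups, and Ivd did so in WT. With the length of the transcript that has the longest coding sequence, Bcat2 was highest in ATF4 overexpression at 16.8 CPM per kilobase. Ivd was then highest in WT at 17.4 CPM per kilobase, and Bcat1 was again lowest in both groups.

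The 7 genes did not move as a block across libraries. Of the 21 pairs, Bcat2 and Bckdha had a Pearson r of 0.825 over the 8 libraries and Bcat2 and Bckdhb one of -0.827, on log2 CPM. Bcat1 and Ivd had an r of -0.709 over the 8 libraries and of 0.74 after removal of the group means. These values describe libraries that share genotype and set. The genes whose pattern was most like Bcat1 over the 8 libraries were AC147806.2 (r = 0.996), Dyrk3 (r = 0.995) and Wdfy4 (r = 0.994), out of 11055 candidates of which 559 had an r above 0.9. For Ivd they were Nemp2 (r = 0.989), Ndufs3 (r = 0.988) and Piga (r = 0.978), with 207 above 0.9. For Bckdhb they were Olig3 (r = 0.99), Nmb (r = 0.988) and Dusp6 (r = 0.981), with 380 above 0.9.

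No further enzyme of the pathway was called. In the branches after the complex and among its partners, 22 further genes were tested and 0 were called higher or lower in edgeR, with a median log2 fold change of -0.09 and a range of -0.38 to 0.26. With the replicate block 0 were called higher and 2 lower, Ppm1k and Pccb, where 13.5% of all tested genes were called lower. In the leucine branch after Ivd, Mccc1 and Mccc2, the subunits of methylcrotonyl-CoA carboxylase, had log2 fold changes of -0.20 ± 0.14 and -0.30 ± 0.15 (SE; adjusted p = 0.42 and 0.25). Auh, a hydratase of that branch, had a log2 fold change of -0.10 ± 0.09 (SE).

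In the isoleucine branch 0 of 4 were called, with a median log2 fold change of 0.09. The highest was Echs1, an enoyl-CoA hydratase, at 38.3 ± 5.48 CPM in ATF4 overexpression and 31.9 ± 3.58 CPM in WT (SD, n = 4 each; log2 fold change 0.26 ± 0.12, SE; edgeR adjusted p = 0.20). Acadsb, the acyl-CoA dehydrogenase of this branch, had 0.16 ± 0.13, Hsd17b10, the next dehydrogenase, 0.02 ± 0.13, and Acat1, the thiolase, -0.09 ± 0.11 as log2 fold change and SE. In the valine branch 0 of 5 were called, with a median of -0.20. There Aldh6a1, methylmalonate semialdehyde dehydrogenase, had -0.25 ± 0.12, Acad8, isobutyryl-CoA dehydrogenase, -0.20 ± 0.14, and Hibadh, a dehydrogenase between them, -0.09 ± 0.10. Abat, the GABA aminotransferase, was near 0, at 0.108 ± 0.0783 CPM in ATF4 overexpression and 0.141 ± 0.137 CPM in WT (SD, n = 4 each).

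The propionyl-CoA branch, which takes the end products of isoleucine and valine to succinyl-CoA, had 0 of 7 called and a median log2 fold change of -0.10. Pcca and Pccb, the subunits of propionyl-CoA carboxylase, had -0.20 ± 0.11 and -0.28 ± 0.15 (SE). Pccb was lower in 4 of 4 same-numbered pairs, with an edgeR adjusted p of 0.27, or 0.0497 with the replicate block. Mcee, an epimerase, had 0.20 ± 0.15 (SE), and Mmab, a cobalamin adenosyltransferase, had -0.18 ± 0.15 (SE).

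The genes of branched-chain amino acid transport held more calls. Of 6 transporter genes 3 were called higher and 0 lower, with a median log2 fold change of 1.32, and with the replicate block 4 were called higher and 1 lower. Over all tested genes 9.16% were called higher and 4.89% lower, or 13.7% and 13.5% with the replicate block. Slc7a5, the light chain of the exchanger that imports large neutral amino acids, averaged 637 ± 44.9 CPM in ATF4 overexpression and 42.7 ± 6.03 CPM in WT (SD, n = 4 each), a log2 fold change of 3.90 ± 0.11 (SE; edgeR adjusted p = 5.7e-08). Its heavy chain partner Slc3a2 averaged 397 ± 18.5 CPM in ATF4 overexpression and 109 ± 6.31 CPM in WT, a log2 fold change of 1.87 ± 0.07 (SE; edgeR adjusted p = 2.9e-07). Both thus rose well beyond the spread between libraries, and the log2 fold change of Slc7a5 was close in size to that of Bcat1. The marker lists given beside Bcat1 moved with these genes too, and their part was not tested.

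The other transporters were less abundant or moved less. Slc7a8, another light chain of that exchanger family, averaged 1.59 ± 0.604 CPM in ATF4 overexpression and 0.224 ± 0.142 CPM in WT (SD, n = 4 each; log2 fold change 2.81 ± 0.53, SE; edgeR adjusted p = 0.0063). Without the 4 libraries with the fewest genes at 2 to 5 counts it was 2.40 and no longer called (edgeR adjusted p = 0.074). Slc43a1, a facilitative carrier of neutral amino acids, had a log2 fold change of 0.77 ± 0.26 (SE; edgeR adjusted p = 0.076, or 0.035 with the replicate block). Its relative Slc43a2 had -0.22 ± 0.10 (SE; edgeR adjusted p = 0.21, or 0.022 with the replicate block). Slc25a44, the carrier that brings branched-chain amino acids into the mitochondrion, had a log2 fold change of 0.03 ± 0.09 (SE) and an edgeR adjusted p of 0.87.

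**Figure D5:**
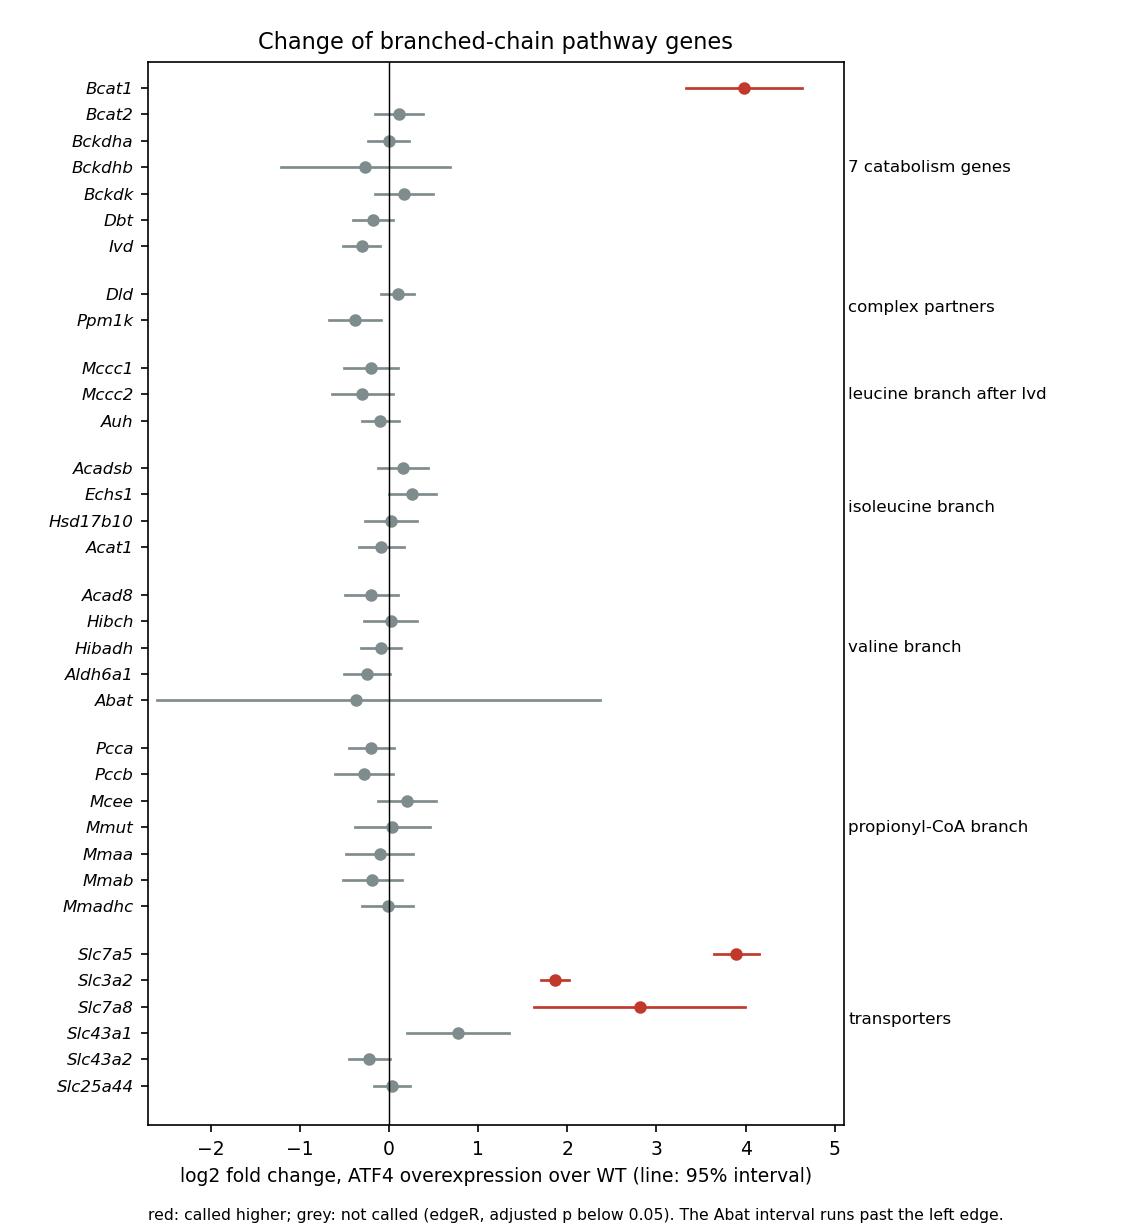
Log2 fold change, ATF4 overexpression over WT, of the 7 genes and of partner, branch and transporter genes, with points at the fitted value, lines over the 95% interval, red for called higher and grey for not called. Bcat1 at 3.99 and the transporters Slc7a5 at 3.90, Slc7a8 at 2.81 and Slc3a2 at 1.87 lie to the right, while the enzymes other than Bcat1 lie between -0.38 and 0.26.

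The related ketoacid dehydrogenases for pyruvate and 2-oxoglutarate, with their kinases and phosphatases, were set beside the branched-chain complex. Of 12 genes 11 were tested, 0 were called higher and 1 lower, with a median log2 fold change of -0.02. Among all tested genes 4.89% were called lower. The 1 called was Pdk1, a kinase that inhibits pyruvate dehydrogenase, at 221 ± 16.6 CPM in ATF4 overexpression and 360 ± 30.0 CPM in WT (SD, n = 4 each), a log2 fold change of -0.70 ± 0.08 (SE; edgeR adjusted p = 0.00057). Bckdk, the corresponding kinase of the branched-chain complex, had an interval of -0.15 to 0.49, and the difference between the kinases was not tested. Pdp1, a phosphatase that reverses this phosphorylation, had -0.37 ± 0.13 (SE; edgeR adjusted p = 0.090, or 0.019 with the replicate block), Pdp2, another such phosphatase, -0.27 ± 0.12 (SE), and Pdk2, a further kinase, 0.26 ± 0.15 (SE). Pdk4 had 0 counts in all libraries, which allows up to 3 counts, or 0.024 to 0.0339 CPM.

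Reads shared with other genes could enter some of these values, since Salmon divides them by a model and the strand setting is not given in the sources used here. Of all 50-base stretches in the transcripts of Bckdha, 49.6% also occur in another gene, B3gnt8 on the opposite strand, which was at 0.576 to 2.00 CPM in ATF4 overexpression and 0.0905 to 0.442 CPM in WT. For Bcat2 the share was 11.6%, mostly through 0610005C13Rik at up to 0.0572 CPM in ATF4 overexpression and up to 0.142 CPM in WT. For Bckdhb it was 4.8%, through Slc38a6 at 6.41 to 10.3 CPM in ATF4 overexpression and 6.46 to 12.0 CPM in WT. For Bcat1 it was 2.55%, through Gm26666 on the opposite strand, which had 0 CPM in all libraries. The levels of Bckdha, Bcat2 and Bckdhb are uncertain to the extent of this sharing, and 0 stretches were shared between any of the 7 genes.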

How the data were processed

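RNA was sequenced from 4 ATF4 overexpression and 4 WT libraries. Estimated counts for each gene were deposited as 1 table, made with Salmon 1.4.0 on GRCm38.p6 per the submitters' processing notes, while its annotation, strand setting and filters are not given in the sources used. Between 6.3% and 7.92% of a library's values were not whole, and all were rounded. All 8 columns matched a sample by library name, and 0 columns were unused.

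Groups were compared with edgeR 4.0.16 in R 4.3.3 (TMM, filterByExpr, robust quasi-likelihood test, group as the only term), which tested 16630 genes. P-values were adjusted over all of them and a gene was called below 0.05. CPM is the count over the TMM-scaled library size, times 1e+06. Intervals are 95% confidence intervals of the fitted log2 fold change, with an error taken from the scatter among libraries. A count of 0 was read as up to 3 counts, which covers counting error only.

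The 7 genes and the gene lists were chosen with earlier results of these data known. Named were the 7 genes, Atf4, and, by smallest p, 4 genes from every list, and all 6 transporters are given. Some results under this rule are not reported here. Most alike genes needed a mean of at least 1 CPM. The test was tried on simulated data.

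Libraries of a group differed by a chi-square per degree of freedom of at least 38.5, so none was counted as the same library deposited again, which does not show that they came from different mice. Same-numbered libraries deviated together from their group means in 4 of 4 pairs (correlations 0.22, 0.199, 0.289 and 0.229), and the replicate block is given where it changes a call. Differently numbered libraries of the same set deviated together about as much (0.157, 0.207, 0.232 and 0.254), so this does not tell the number from the library set. The labels do not say what the replicate numbers stand for.

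Alternatives were RLE and upper-quartile factors, no filter and a stricter one, DESeq2 1.42.0, limma-voom 3.58.1, the replicate block, a library set block, each set alone, unrounded counts and each library left out. Leaving out the 4 libraries with the fewest genes at 2 to 5 counts, and the block with RLE factors, were added after the data were seen. Coordinates and lengths are from GENCODE M21 on GRCm38, and sequences from RefSeq on GRCm38.p6.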

Additional observations from a re-analysis of the deposited data

Results flagged for a closer look

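Dixon's test was run on 72 groups of 4 libraries, over 36 genes. These were the 7 genes, Atf4 and 28 genes of the other lists, among them kinases and phosphatases of pyruvate dehydrogenase. Of the 72 groups 2 held a library far from the others at the 95% critical value of 0.829, where chance marks about 1 group in 20. Acad8, isobutyryl-CoA dehydrogenase, was at 16 CPM in ATF4 overexpression replicate 4, against 19 to 19.3 CPM in the other ATF4 overexpression libraries. Pdk2, a pyruvate dehydrogenase kinase, was at 21.2 CPM in ATF4 overexpression replicate 2, against 15.4 to 16.3 CPM in the other ATF4 overexpression libraries. Neither was 1 of the 7 genes.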

How the results depend on the processing

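Bcat1 was called higher under all 21 alternatives tried, with log2 fold changes of 3.67 to 4.37. Bcat2, Bckdha, Bckdhb and Dbt were called under none of theirs, Bckdk was called higher within replicates 3 and 4 only, and Ivd was called lower under 5 of 21. No called value changed sign, while 29 of 754 alternative log2 fold changes over 36 genes did, in 9 genes, with 0 of the 29 called in either fit. Among these were Atf4 (-0.11) and Acat1 (0.09) without the 4 libraries with the fewest genes at 2 to 5 counts, Bckdk (-0.01) within replicates 1 and 2, and Abat (0.58) with limma-voom. All tested genes gave 2337 calls, against 4516 with the replicate block, 4254 with the library set block, 3799 within replicates 3 and 4, and 1607 to 2088 when 1 library was left out. Of the 7 genes 1 was called, against 2 with DESeq2, 2 with the replicate block, 2 with the library set block and 2 within replicates 3 and 4, and 1 to 2 when 1 library was left out. With the replicate block, calls were 1 for the complex partners, 1 for the propionyl-CoA branch, 5 for transport and 2 for the other ketoacid dehydrogenases, against 0, 0, 3 and 1 without it. Within replicates 3 and 4 they were 1 for the complex partners, 1 for the isoleucine branch (Echs1), 1 for the valine branch (Aldh6a1) and 5 for transport, against 0, 0, 0 and 3 over all libraries. The cause of these differences was not tested. The block changed no other call among the named pathway genes. Of the called genes 65.2% were higher, 50.5% with the replicate block, 71.7% with upper-quartile factors and 79% without those 4 libraries. Over the 28 named genes of the other lists, 562 of 586 alternative values kept their side of the threshold, 23 passed it newly and 1 lost it. Depth limited Abat, at 0 to 29 counts a library, and the interval of Bckdhb narrowed when the set or replicate was a term.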
